A study of Homo sapiens with 10 samples.

Results

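The transcriptome described here is that of U2OS cells under the vehicle DMSO alone, as read on 5 arrays of a series of 10. U2OS is an established human osteosarcoma line. The other 5 arrays of the series are U2OS cells given PD0332991 (palbociclib), a drug that blocks the kinases partnered by D-type cyclins, and the series set out to compare these with the vehicle cells. Cells of every array were seeded at 25% density and grown for 30 h in McCoy medium with 10% serum before the agent was added, and the vehicle cells then spent 4 h with DMSO. The labels call the 5 DMSO samples biological replicates 1 to 5 and say nothing further of how the cultures were separated, so the errors below measure the spread between these 5 samples of 1 line. Total RNA was hybridised as biotin-labelled cDNA to an exon array, and the deposited gene-level values are on a log2 scale, on which a step of 1 is a doubling of signal. Genes were chosen by having a probe set with exactly 1 gene symbol, and where a gene had more than 1 such probe set the one with the highest mean was taken. This gave 14232 genes from 21980 probe sets, of which 14432 had 1 symbol, 2408 had several and 5140 had none.

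Osteosarcoma is a tumour of the bone-forming lineage, whose cells lay down a matrix rich in type I collagen and then mineralise it. Cells of mesenchymal origin make vimentin filaments, N-cadherin, fibronectin and collagens, whereas epithelial cells join through E-cadherin and fill with keratins. U2OS is known as a line with an intact RB pathway downstream of a silenced CDKN2A, and as one that keeps its telomeres by recombination (alternative lengthening) instead of telomerase. Probe sets differ in how strongly they bind their target, so a level is the reading of a probe set and not a number of transcripts, and an order of genes by level is an order on this array. For that reason no test was made between genes. Each list of genes is given by its median and by how many of its members lay in the highest 25% of the 14232 genes, a share that all genes have by construction.

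The 5 arrays had medians over all probe sets of 6.96 to 7.06, and pairs of arrays correlated across genes with Pearson's r of 0.962 to 0.994, a figure that mostly shares the fixed differences between probe sets. Replicate 1 stood apart. Its correlations with the other arrays were 0.962 to 0.97, against 0.981 to 0.994 among the other 4 arrays. Its readings were compressed, with an interquartile range of 3.18 against 3.41 to 3.61 on the others. On replicate 1, 72 genes lay more than 1 log2 unit above all other arrays and 135 lay as far below, while no other array had more than 10 above or 7 below. The array names in the labels place replicates 1 to 3 in one set of arrays and replicates 4 and 5 in another, and results that touch on this are given with it.

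Gene means ran from 2.37 to 14.01 with quartiles of 5.68, 7.24 and 8.67. Olfactory receptor genes, which encode odorant receptors of sensory neurons of the nose, served as a reference for dim readings. The 218 measured (of 390 listed) had a median of 4.20 and a range of 2.60 to 7.28. Their 95th percentile was 5.80, and 10422 genes (73.2%) read above it. On single arrays this reference moved from 5.49 on replicate 3 to 6.42 on replicate 1. With the reference taken on each array by itself, 9199 genes were above it on all 5 arrays, 3306 on none and 1727 on some. The reference is not a detection limit. Among 8 lists of machinery that growing cells use, holding 270 measured genes, 11 members read at or below it. They included TPI1 at 4.97 ± 0.80 (SD, n = 5, as for every error below), a glycolytic enzyme, and EIF2S2 at 3.11 ± 0.84, a subunit of the initiation factor that carries the initiator tRNA. RPS29, a protein of the small ribosomal subunit, read 5.15 ± 0.37. A low reading is therefore given here as a reading and not as the absence of a transcript.

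**Figure D1:**
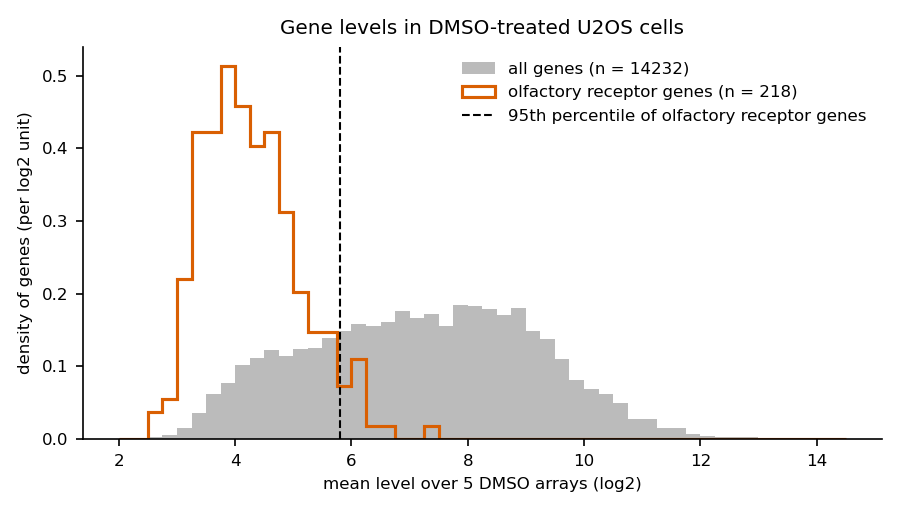
The horizontal axis is the mean log2 level of a gene over the 5 DMSO arrays and the vertical axis the density of genes per log2 unit, in grey for all 14232 genes and as an orange outline for the 218 olfactory receptor genes. The olfactory receptor genes sit around their median of 4.20, and the dashed line marks their 95th percentile at 5.80, above which 73.2% of all genes lie.

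The brightest genes encoded chaperones, glycolytic enzymes, actin and its binding proteins, histones and a few secreted or membrane-linked proteins. HSPA8, the constitutive chaperone of the cytosol, ranked first and read 13.77, 14.06, 14.05, 14.06 and 14.13 on replicates 1 to 5, a mean of 14.01 ± 0.14. Replicate 1 was the lowest of the 5 and the other 4 lay close together, at 14.05 to 14.13. ENO1, the glycolytic enzyme enolase, followed at 13.84 ± 0.11, and ACTB, cytoplasmic beta-actin, at 13.69 ± 0.20. ENO1 was read at 13.75, 13.79, 13.75, 13.98 and 13.91 on replicates 1 to 5, and ACTB at 13.85, 13.92, 13.68, 13.54 and 13.46. ACTB was thus higher on each array of the first set than on either of the second, and ENO1 was the reverse. Readings of the array sets did not overlap for 26.8% of all probe sets, so such a separation was common.

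Chromatin proteins held 4 of the 20 highest places: the linker histones H1-4 (13.22 ± 0.18) and H1-1 (13.11 ± 0.25), the core histone H2AC21 (13.12 ± 0.31) and the variant H2AZ1 (12.66 ± 0.41). RRM2, the small subunit of ribonucleotide reductase, which makes deoxynucleotides for replication, read 12.88 ± 0.14. PA2G4, a growth-regulated protein that binds ribosomes, read 13.11 ± 0.29, and RPL18 of the large ribosomal subunit 12.83 ± 0.23. The cytoskeleton supplied TAGLN2, an actin-binding protein of the transgelin family (13.22 ± 0.24), TMSB10, a thymosin that holds actin monomers (12.67 ± 0.20), and the tubulin TUBB (12.84 ± 0.20). The other members of the 20 were LDHA, LGALS1, HSP90AA1, S100A10, PGK1, THBS1 and CLIC4, between 12.71 and 13.09. Of these, THBS1, the matricellular glycoprotein thrombospondin-1, had the smallest spread among the 20. It read 12.75, 12.83, 12.85, 12.72 and 12.71, a mean of 12.77 ± 0.06. PGK1, a glycolytic kinase, had the widest, with 12.10 on replicate 1 and 13.51 on replicate 2 around a mean of 12.77 ± 0.50. All 20 genes were among the 100 highest of every array, and 60 genes were among the 100 highest on all 5. Histones, actins, tubulins, ribosomal proteins and glycolytic enzymes have near-identical copies in the genome, and whether the probes of these genes also bind such copies was not tested.

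Promoters are shown for genes at both ends of the scale, because the sequence around the start site is a feature that took no part in choosing or ranking them. Each window runs from 250 bases before to 50 after the first start listed for the gene in RefSeq (GRCh38.p14) and is printed 5′ to 3′ on the gene's strand. Capitals mark a match on either strand to 1 of 4 motifs. They are the TATA box with the letters TATAAA, the CCAAT box, the GC box with the letters GGGCGG, and the CArG box, which serum response factor binds. Matches were counted for each motif by itself, so that overlapping matches count under both. HSPA8 is the first gene by level (chr11:123062087-123062386, minus strand) and ACTG1, cytoplasmic gamma-actin, reads 12.60 ± 0.32 (chr17:81512750-81513049, minus strand). THBS1 (chr15:39580829-39581128, plus strand) and SPARC (chr5:151686866-151687165, minus strand) encode matrix proteins that read high. OR6C1 is the lowest olfactory receptor gene, at 2.60 ± 0.52 (chr12:55314093-55314392, plus strand).
HSPA8: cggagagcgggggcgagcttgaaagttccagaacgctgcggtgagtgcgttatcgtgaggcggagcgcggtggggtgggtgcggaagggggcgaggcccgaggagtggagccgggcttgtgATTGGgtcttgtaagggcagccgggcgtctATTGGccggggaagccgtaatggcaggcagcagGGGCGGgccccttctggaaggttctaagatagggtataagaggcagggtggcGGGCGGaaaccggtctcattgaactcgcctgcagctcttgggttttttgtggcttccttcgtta
ACTG1: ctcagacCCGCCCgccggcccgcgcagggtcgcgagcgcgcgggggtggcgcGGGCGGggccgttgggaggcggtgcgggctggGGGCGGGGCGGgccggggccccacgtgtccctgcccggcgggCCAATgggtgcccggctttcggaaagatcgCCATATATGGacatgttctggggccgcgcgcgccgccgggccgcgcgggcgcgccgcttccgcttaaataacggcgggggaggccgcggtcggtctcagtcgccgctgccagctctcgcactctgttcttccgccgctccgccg
THBS1: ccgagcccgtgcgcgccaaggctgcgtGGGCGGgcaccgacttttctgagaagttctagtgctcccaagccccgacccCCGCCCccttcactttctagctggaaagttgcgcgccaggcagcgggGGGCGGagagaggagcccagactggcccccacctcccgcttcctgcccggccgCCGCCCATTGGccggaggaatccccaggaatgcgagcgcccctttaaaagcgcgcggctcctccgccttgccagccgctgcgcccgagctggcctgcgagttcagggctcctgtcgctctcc
SPARC: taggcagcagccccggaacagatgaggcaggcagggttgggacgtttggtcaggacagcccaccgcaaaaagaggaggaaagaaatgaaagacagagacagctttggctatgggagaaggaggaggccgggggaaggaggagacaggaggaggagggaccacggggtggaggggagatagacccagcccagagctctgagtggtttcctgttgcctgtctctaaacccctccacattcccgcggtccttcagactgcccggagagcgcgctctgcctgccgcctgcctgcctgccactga
OR6C1: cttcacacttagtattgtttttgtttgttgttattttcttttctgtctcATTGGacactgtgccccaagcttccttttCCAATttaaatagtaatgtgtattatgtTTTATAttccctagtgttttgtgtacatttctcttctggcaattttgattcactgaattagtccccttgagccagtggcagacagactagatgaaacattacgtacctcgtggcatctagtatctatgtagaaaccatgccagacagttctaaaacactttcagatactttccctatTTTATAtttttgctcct

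The windows of HSPA8 and THBS1 each held GC boxes and CCAAT, with 2 matches of each in HSPA8 and, in THBS1, 4 GC boxes and 1 CCAAT. ACTG1 had 4 GC boxes, 1 CCAAT and a CArG box that begins 94 bases before the start. SPARC had no match to any of the 4 motifs. OR6C1 had no GC box, and had 2 matches each to TATAAA and CCAAT. Such a match describes the letters of the window and does not show that a factor binds there.

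A window was found for 11386 of the 14232 genes (80%). GGGCGG was present in 72.2% of the 593 windows of the highest 5% of genes and in 74.8% of the 2430 windows of the remainder of the highest 25%, against 60.8% over all genes described and 44.6% over all 27305 windows of the table. CCAAT was present in 43.3% of the highest 5%, in 37% of the remainder of the highest 25% and in 36.5% over all genes described. TATAAA was in 8.6% of the highest 5% and in 4.24% of the remainder of the highest 25%, and over all genes described it was in 8.6%. The median number of CG dinucleotides per window was 27 in the highest 5%, 28 in the remainder of the highest 25% and 23 over all genes described. Below the highest 25%, fewer than 80% of genes had a window, so their shares are given without a comparison. Between the olfactory receptor reference and the highest 25%, GGGCGG was in 67.4% and CCAAT in 34.5%. At or below the reference, without olfactory receptors, these were 36.8% and 38.4%. In olfactory receptor windows they were 1.16% and 42.8%. Among the actin cytoskeleton genes, 25 of 29 had a window and 96% of these held GGGCGG. The CArG box was in 3 of the 25 (12%), in ACTG1, ACTG2 and CNN2, against 1.26% over all genes described. These 3 genes read 12.60 for ACTG1, 10.24 for the calponin CNN2 and 5.09 for the smooth muscle actin ACTG2. Such a share was not particular to actin genes. The CArG box was in 1 of 7 tubulin windows (14.3%) and 2 of 21 annexin and S100 windows (9.52%), while many lists had none. It was also in 1 of 8 muscle windows (12.5%), but only 66.7% of the muscle genes had a window.

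The machinery of protein folding, breakdown, movement and RNA handling gave the highest lists. Of the 270 genes in the 8 machinery lists, 199 (73.7%) lay in the highest 25%. Chaperones led with a median of 10.97 and 19 of 22 in the highest 25%. Below HSPA8 and HSP90AA1 (12.89 ± 0.29) came PDIA6, a disulfide isomerase of the endoplasmic reticulum (12.26 ± 0.18), and CCT7, a subunit of the chaperonin that folds actin and tubulin (12.03 ± 0.15). The lowest of the list were the mitochondrial chaperonin HSPD1 (8.34 ± 0.49) and the cyclophilin PPIA (8.09 ± 0.42). The proteasome had a median of 10.51 with 23 of 29 in the highest 25%, led by the core subunits PSMB2 (11.67 ± 0.31) and PSMB4 (11.65 ± 0.10). PSMB10, a catalytic subunit of the immunoproteasome, stood near the bottom of that list at 7.70 ± 0.20.

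Actin cytoskeleton genes had a median of 10.47, with 24 of 29 in the highest 25%. Their lowest members were MYH11, the smooth muscle myosin heavy chain, at 5.97 ± 0.18, and ACTG2. Genes of RNA binding and splicing had a median of 10.23 with 37 of 43 in the highest 25%. HNRNPA2B1 (12.40 ± 0.18) and HNRNPH1 (11.94 ± 0.19), which coat nascent transcripts, led that list. Glycolysis had a median of 9.98 with 12 of 16 in the highest 25%. After ENO1, LDHA (13.09 ± 0.12) and PGK1 came LDHB at 12.59 ± 0.10. LDHA and LDHB encode the subunits of lactate dehydrogenase that favour lactate formation and lactate use. ALDOC, the aldolase known from brain, was near the bottom of the list at 7.99 ± 0.11.

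Oxidative phosphorylation had a median of 9.26 with 39 of 58 in the highest 25%, and its highest members were NDUFB9 of complex I (12.02 ± 0.12) and ATP5F1A of the ATP synthase (11.77 ± 0.34). Translation factors had a median of 9.20 with 29 of 45 in the highest 25%, led by subunits of initiation factor EIF3 such as EIF3I (11.68 ± 0.05). Ribosomal protein genes had a median of 9.02 with 16 of 28 in the highest 25%, but 79 were listed, so most were not described here. They also had the largest typical spread of these lists, with a median SD of 0.42 against 0.24 over all genes.

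**Figure D2:**
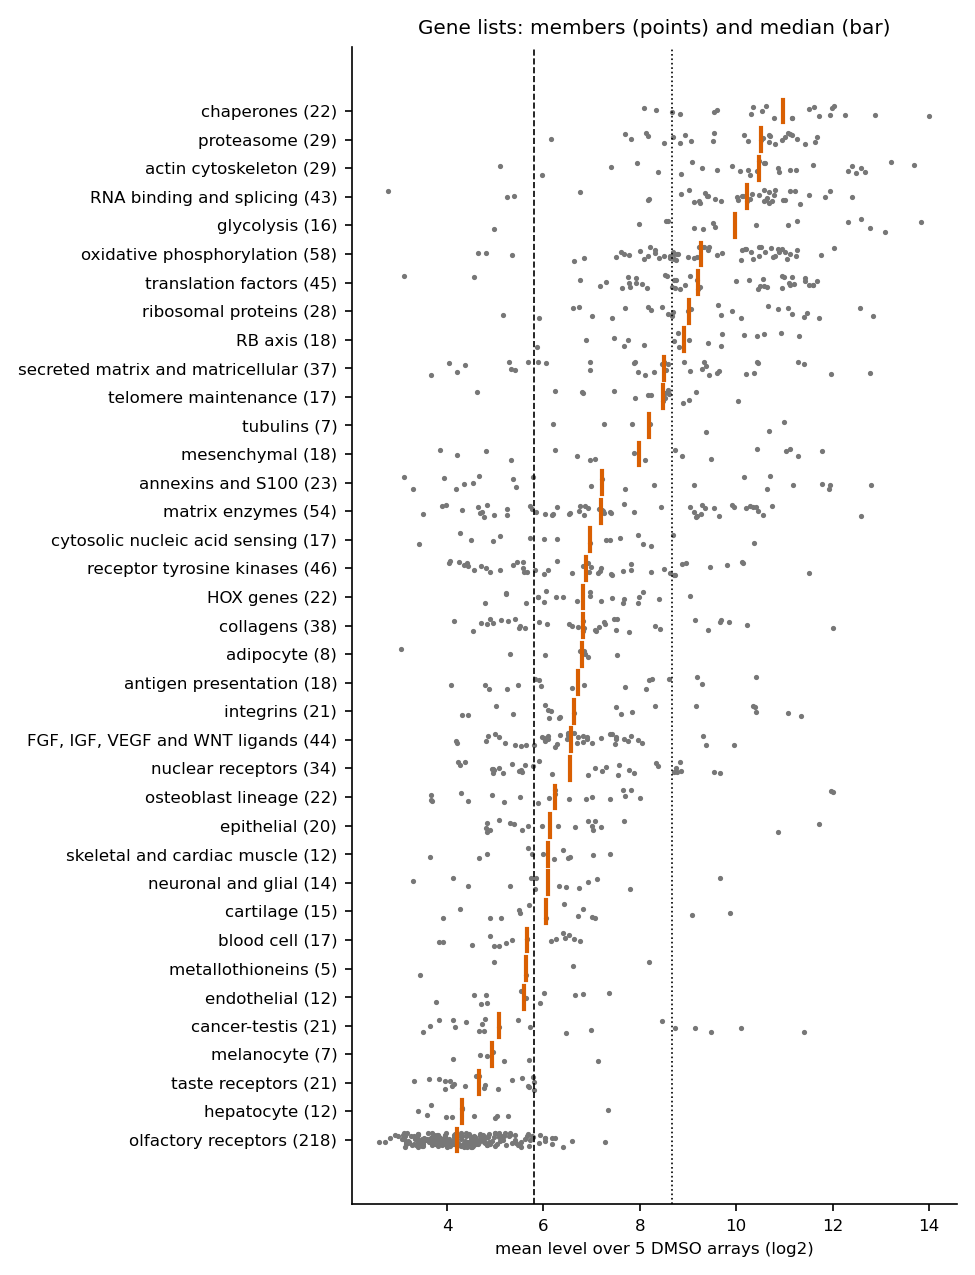
The horizontal axis is the mean log2 level over the 5 DMSO arrays. Each row is a gene list with its number of measured genes, each grey point a gene, and each orange bar the median. The dashed line is the olfactory receptor reference (5.80) and the dotted line the start of the highest 25% of genes (8.67). The machinery lists lie at the top, from chaperones at 10.97 to ribosomal proteins at 9.02, and olfactory receptors at the bottom at 4.20.

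The labels give the cells as an osteosarcoma line. Some mesenchymal markers read high in them and others low, and the median of the osteoblast genes was below that of all genes. Mesenchymal genes had a median of 7.99, with 8 of 18 in the highest 25% and 5 in the highest 5%. VIM, the intermediate filament vimentin, read 12.23, 11.93, 11.86, 11.42 and 11.47 on replicates 1 to 5, a mean of 11.78 ± 0.33, with the second array set below the first. FN1 (fibronectin) stood at 11.27 ± 0.10, but at 9.58 when all its probe sets were averaged. CDH2 (N-cadherin) read 11.11 ± 0.17 and the surface glycoprotein THY1 11.02 ± 0.14. The transcription factors SNAI2 (10.44 ± 0.13) and ZEB1 (8.72 ± 0.23), repressors of epithelial genes, and CD44, the hyaluronan receptor (9.48 ± 0.19), were also in the highest 25%. These 3 were chosen for naming after their values were seen. Other mesenchymal genes read at the level of olfactory receptors, namely NT5E (3.84 ± 0.21), a surface enzyme used to define mesenchymal stromal cells, and the matrix proteoglycan decorin, DCN (4.21 ± 0.31).

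Osteoblast lineage genes had a median of 6.24, below the 7.24 of all genes, and 2 of 22 lay in the highest 25%. Both were high. COL1A1, the alpha 1 chain of type I collagen, read 12.19, 12.19, 11.91, 11.97 and 11.83 on replicates 1 to 5, a mean of 12.02 ± 0.17 at percentile 99.6. SPARC (osteonectin), a collagen-binding protein of bone, read 11.80, 11.99, 11.98, 12.06 and 12.03, a mean of 11.97 ± 0.10. COL1A2, which encodes the partner chain of COL1A1 in type I collagen, read 6.53 ± 0.19 at percentile 38.1.

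The regulators of the lineage were in the middle of the scale or below it. RUNX2, the master factor of osteoblasts, read 8.02, 7.72, 7.52, 7.77 and 7.45, a mean of 7.69 ± 0.22 at percentile 57.5. SP7 (osterix), which acts after RUNX2, read 6.11 ± 0.29, and ALPL, the alkaline phosphatase needed for mineralisation, 6.24 ± 0.23. SP7 was above the olfactory receptor reference of its own array on all 5, most narrowly on replicate 4, where it read 5.81 and the reference 5.77. CDH11, the cadherin of osteoblasts, read 8.0 ± 0.14 and SPP1 (osteopontin) 7.81 ± 0.12. The lowest of the list were MEPE, a matrix protein of osteocytes, at 3.67 ± 0.15 and the matricellular protein POSTN, of the bone surface, at 3.66 ± 0.08. Bone sialoprotein, IBSP, named after its value was seen, read 4.28 ± 0.32.

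Cartilage genes had a median of 6.06, and 2 of 15 lay in the highest 25%. These were HAPLN1, a link protein that ties hyaluronan to proteoglycans, at 9.88 ± 0.25, and SOX9, the master factor of chondrocytes, at 9.09 ± 0.37. The main cartilage proteoglycan ACAN read 7.0 ± 0.10. SOX9 was 9.71 on replicate 1 and 8.77 to 9.09 on the other arrays.

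Epithelial genes had a median of 6.13, with 2 of 20 in the highest 25%, and both were keratins. KRT8 read 11.75, 11.88, 11.55, 11.37 and 12.08 on replicates 1 to 5, a mean of 11.73 ± 0.28. Its partner KRT18, with which it forms the filaments of simple epithelia, read 11.01, 10.90, 10.63, 10.89 and 10.87, a mean of 10.86 ± 0.14. CDH1 (E-cadherin), the defining junction protein of epithelia, read 5.98, 5.45, 5.43, 5.41 and 5.47, a mean of 5.55 ± 0.24, and was below the olfactory receptor reference of its own array on all 5. ESRP1, a splicing regulator of epithelial cells, read 4.83 ± 0.21, the vesicle GTPase RAB25 4.80 ± 0.31 and the adhesion protein EPCAM, named after its value was seen, 5.68 ± 0.32. The other 18 epithelial genes were all below the highest 25%, CLDN3, a tight junction claudin, being the next at 7.67 ± 0.29.

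Markers of other cell types were all below the highest 25% in 6 lists (adipocyte, muscle, blood, endothelial, hepatocyte and melanocyte). None of their 68 measured genes reached it, and the highest was CFD, the adipocyte protease adipsin, at 7.53 ± 0.44, a level that 45% of all genes exceeded. Nevertheless 27 of the 68 (39.7%) read above the olfactory receptor reference, against 73.2% of all genes. PTPRC, the leukocyte surface phosphatase CD45, read 3.90 ± 0.23, FABP4, the fatty acid carrier of adipocytes, 3.05 ± 0.25, and the melanocyte antigen MLANA 4.12 ± 0.20. The muscle factor MYOG read 7.38 ± 0.42, with 8.07 on replicate 1 and 7.01 to 7.48 on the other arrays. Neuronal and glial genes had a median of 6.09 and 1 of 14 in the highest 25%, the neurofilament light chain NEFL at 9.66 ± 0.16.

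**Figure D3:**
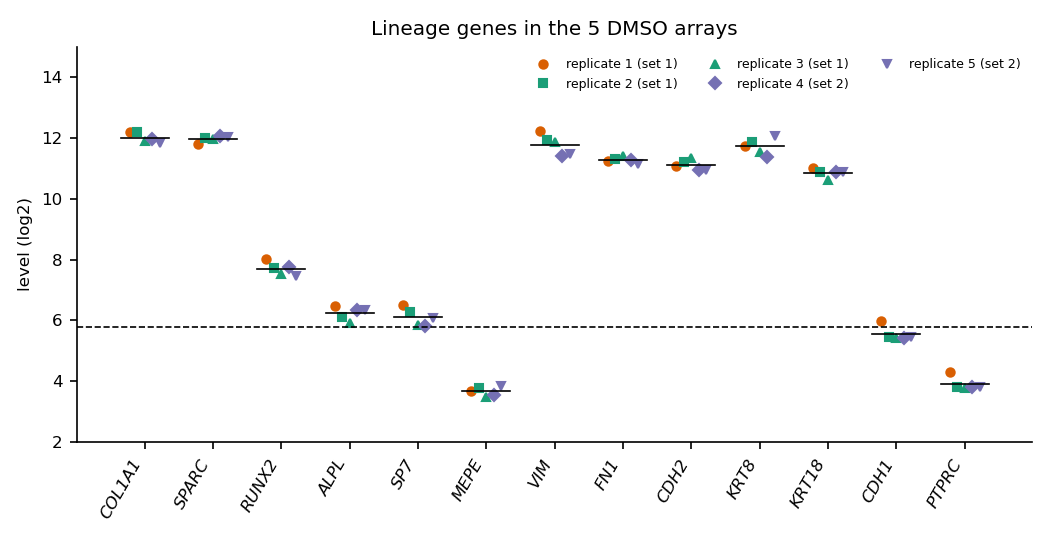
The vertical axis is the log2 level and each point is 1 of the 5 DMSO arrays, with the array set in the key, the black bar the mean and the dashed line the olfactory receptor reference of 5.80. COL1A1, SPARC, VIM, FN1, CDH2, KRT8 and KRT18 lie above 10 on every array, RUNX2 between 7.45 and 8.02, and MEPE and PTPRC below the dashed line on every array.

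Secreted matrix genes lay above all genes in their median, while the medians of matrix enzymes and collagens were below the 7.24 of all genes. Secreted matrix and matricellular genes had a median of 8.5, with 16 of 37 in the highest 25%. Beside THBS1, SPARC and FN1, this list held CCN1, a matricellular protein induced by growth factors and stretch, at 11.42 ± 0.27. MGP, an inhibitor of calcification, was near its bottom at 4.04 ± 0.34. Matrix enzymes and their inhibitors had a median of 7.19 with 19 of 54 in the highest 25%. TIMP1, an inhibitor of matrix metalloproteinases, led them at 12.59 ± 0.22, followed by SERPINH1, the collagen chaperone of the endoplasmic reticulum, at 10.74 ± 0.20. PLOD1, a lysyl hydroxylase of collagen, read 10.56 ± 0.06 and the gelatinase MMP2 10.45 ± 0.09. The neutrophil collagenase MMP8 read 3.49 ± 0.12.

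Collagens had a median of 6.83 with 7 of 38 in the highest 25%. After COL1A1 the highest were COL12A1, which decorates collagen fibrils (10.22 ± 0.16), COL4A2 of basement membranes (9.85 ± 0.12) and COL6A1 of microfibrils (9.69 ± 0.15). COL3A1, the fibrillar collagen of soft connective tissue, read 7.47 ± 0.33 and was named after its value was seen.

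Integrins, the receptors through which cells hold on to this matrix, had a median of 6.64 with 6 of 21 in the highest 25%. ITGB1, the common beta chain, read 11.23, 11.51, 11.55, 11.24 and 11.25 on replicates 1 to 5, a mean of 11.35 ± 0.16. The alpha chains that pair with it followed, with ITGA3 (laminin receptor) at 11.08 ± 0.17, ITGA5 (fibronectin receptor) at 10.40 ± 0.22 and ITGAV, an alpha chain of vitronectin receptors, at 10.40 ± 0.34. ITGB6, known from epithelia, read 4.43 ± 0.34. Annexins and S100 proteins, which bind calcium and membranes, had a median of 7.21 and 9 of 23 in the highest 25%. S100A10 led them at 12.80 ± 0.30, ANXA1 read 11.95 ± 0.19 and ANXA5 11.93 ± 0.24, while S100B of glia read 3.29 ± 0.12.

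Ligands of the FGF, IGF, VEGF and WNT families had a median of 6.58, and 3 of 44 lay in the highest 25%. They were VEGFB (9.96 ± 0.21), FGF5 (9.37 ± 0.47) and VEGFC (9.30 ± 0.25). FGF5 read 8.65, 9.40, 9.26, 9.84 and 9.72 on replicates 1 to 5, lowest on replicate 1. Receptor tyrosine kinases had a median of 6.88 with 9 of 46 in the highest 25%. AXL, the receptor for GAS6, stood first at 11.66, 11.53, 11.59, 11.36 and 11.41, a mean of 11.51 ± 0.12, and it was the only receptor tyrosine kinase in the highest 5%. RYK, a WNT receptor, read 10.15 ± 0.24, MET, the receptor for hepatocyte growth factor, 10.13 ± 0.16 and IGF1R 9.81 ± 0.20. Averaged over all its probe sets, IGF1R read 9.21. KIT (4.03 ± 0.22) and FLT3 (4.06 ± 0.24), receptors of blood progenitors, were lowest.

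Nuclear receptors had a median of 6.56 with 7 of 34 in the highest 25%. NR3C1, the glucocorticoid receptor, was the highest at 9.55, 9.64, 9.67, 9.82 and 9.66 on replicates 1 to 5, a mean of 9.67 ± 0.10. NR1D2, a circadian repressor, came next at 9.54 ± 0.21. The progesterone receptor PGR read 4.27 ± 0.24.

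HOX genes lie in 4 clusters and give cells their position along the body axis. Of 39 listed, 22 were measured, with a median of 6.83, and 1 lay in the highest 25%. That gene was HOXB9, at 8.99, 8.98, 9.08, 9.08 and 9.08 on replicates 1 to 5, a mean of 9.04 ± 0.06. The HOXC cluster had the highest median, 7.70 over 6 measured genes, with HOXC8 at 8.40 ± 0.52, HOXC13 at 8.06 ± 0.40 and HOXC10 at 7.98 ± 0.34. On replicate 1 HOXC8 read 9.31, and 8.04 to 8.26 on the other arrays. HOXB had a median of 6.61 over 8 genes and HOXD 6.06 over 7. Of the 11 HOXA genes only HOXA2 was measured, at 4.80 ± 0.28, so that cluster is not described.

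Genes of the RB axis, through which cells hold or release the cell cycle, had a median of 8.91 with 12 of 18 in the highest 25%. The lowest of the list were CDKN2A and its neighbour CDKN2B. CDKN2A, which encodes an INK4 protein that blocks cyclin D kinases, read 6.10, 6.03, 5.51, 5.94 and 5.78 on replicates 1 to 5, a mean of 5.87 ± 0.24. CDKN2B, another INK4 gene, read 6.89 ± 0.32. CDKN2A was above the olfactory receptor reference of its own array on 3 arrays and below it on the other 2. Other members of the axis read higher. The D-type cyclins read 10.94 ± 0.25 (CCND2) and 10.58 ± 0.17 (CCND1), and their kinase CDK6 9.69 ± 0.17. RB1, the pocket protein that these kinases phosphorylate, read 8.79 ± 0.51. CDK2 read 10.44 ± 0.29.

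FOXM1, a transcription factor of dividing cells, read 11.67, 11.32, 11.36, 11.11 and 11.09 on replicates 1 to 5, a mean of 11.31 ± 0.23 and the highest of the list. CDKN1A, an inhibitor of cyclin-dependent kinases, and MDM2, a ubiquitin ligase, read 9.70 ± 0.21 and 9.41 ± 0.28. MYC, outside the list, read 10.08 ± 0.11. CDK4 had no probe set with that 1 symbol and is not described here.

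Telomere maintenance genes had a median of 8.49 with 4 of 17 in the highest 25%. The highest were NOP10, a protein of the telomerase RNP and of H/ACA particles (10.05 ± 0.27), and the telomere-binding proteins TERF2 (9.17 ± 0.25) and TERF2IP (9.03 ± 0.22). TERT, the reverse transcriptase of telomerase, read 7.14, 6.77, 6.41, 6.77 and 6.87 on replicates 1 to 5, a mean of 6.79 ± 0.26 at percentile 42.4. TERT was above the olfactory receptor reference of its own array on all 5. ATRX, a chromatin remodeller whose loss is known from cells with alternative lengthening, read 4.54, 4.79, 4.73, 4.45 and 4.61, a mean of 4.62 ± 0.14 at percentile 11.8 and the lowest of the list. All 5 readings of ATRX were below the olfactory receptor reference. Its histone chaperone partner DAXX read 8.49 ± 0.19.

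Cancer-testis genes, which are normally confined to germ cells, had a median of 5.08, with 5 of 21 (23.8%) in the highest 25%, close to the share of all genes. All 5 were MAGE genes of the X chromosome, and the 4 highest were MAGEA4 (11.40 ± 0.16), MAGEB2 (10.09 ± 0.18), MAGEA8 (9.47 ± 0.40) and MAGEA1 (9.15 ± 0.29). MAGEA4 read 11.43, 11.18, 11.29, 11.53 and 11.56 on replicates 1 to 5, at percentile 98.9 in the mean. The germ cell helicase DDX4 read 3.65 ± 0.04 and the synaptonemal protein SYCP1 3.49 ± 0.16. MAGE genes are close copies of each other, and whether a reading is shared between members was not tested.

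Antigen presentation genes had a median of 6.72 with 3 of 18 in the highest 25%, namely B2M, the light chain of class I molecules (10.41 ± 0.28), the loading factor TAPBP (9.28 ± 0.19) and HLA-E (9.19 ± 0.17). The class II chain HLA-DRA read 4.07 ± 0.16. Genes that sense nucleic acids in the cytosol had a median of 6.97 with 2 of 17 in the highest 25%, ADAR, an RNA-editing enzyme (10.36 ± 0.15), and MAVS, the mitochondrial adaptor (8.68 ± 0.20). MAVS was at the edge of that range, and without replicate 1 the number was 1. CGAS, the cytosolic DNA sensor, read 6.83, 7.28, 7.49, 6.73 and 6.5 on replicates 1 to 5, a mean of 6.97 ± 0.41, and its adaptor STING1 7.58 ± 0.12. The DNA sensor AIM2 read 3.41 ± 0.28. Of the drug exporters, ABCC1 read 9.26 ± 0.10, ABCB1 6.14 ± 0.25 and ABCG2 6.12 ± 0.10.

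The spread between the 5 arrays was small for most genes. The median SD was 0.24 and the 95th percentile 0.50, and the median was 0.23 to 0.26 in each of 5 bins of genes by level. Only 19 genes (0.134%) had an SD above 1. Without replicate 1 the median SD was 0.18.

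Replicate 1 differed from replicates 2 and 3, its companions in the first array set, by list as follows. All 22 lists with a median under 7 were higher on replicate 1, and all 5 lists with a median over 9.5 were lower. Of the 10 lists between these levels, 8 were higher and 2 lower, among them tubulins at 0.56 and ribosomal proteins at 0.30 higher. Quantile normalization of the 5 arrays was an alternative added after seeing the data. After it 22 of 22 were higher and 4 of 5 lower, with the proteasome at -0.01 and glycolysis at 0.0. The median over all genes was then 0.05. Among the 22, integrins (0.03) and cytosolic nucleic acid sensing genes (0.04) did not exceed it. Tubulins had the largest value at 0.62. On the deposited scale, muscle genes were higher by 0.64, hepatocyte genes by 0.57 and olfactory receptors by 0.44. After quantile normalization these were 0.47, 0.3 and 0.17. The difference on the deposited scale was -0.32 for RNA binding and splicing genes and -0.25 for chaperones, beside 0.14 for all genes. Each value is the median over a list's genes of the difference from those 2 arrays, in 1 array and with no test. On replicate 1, 135 genes lay more than 1 log2 unit below all other arrays, and only examples are named. SMU1, a splicing factor, was at 6.42 against 8.91 to 9.54 and RWDD4 at 4.35 against 7.01 to 7.42. GTF2H5, a subunit of TFIIH, was at 4.35 against 6.52 to 7.28. S100A11, a calcium-binding protein, went the other way, at 10.14 against 7.24 to 8.53.

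**Figure D4:**
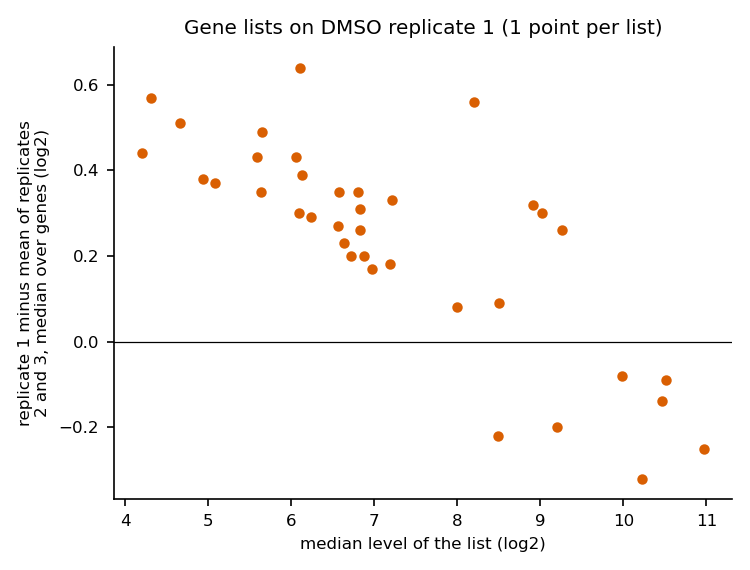
Each point is 1 of 37 gene lists, with its median log2 level over the 5 DMSO arrays on the horizontal axis and on the vertical axis, in log2 units, the median over its genes of replicate 1 minus the mean of replicates 2 and 3. Points left of a level of 7 all lie above zero and points right of 9.5 all lie below it. Of those 5, 4 were also below zero after quantile normalization, the proteasome at only -0.01.

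The arrays were also compared by array set, and what lies behind a difference between the sets was not tested. In the 5 DMSO arrays, limma called 0 of 21980 probe sets (0%) between replicates 4 and 5 and replicates 1 to 3 at an adjusted p under 0.05. At an unadjusted p under 0.05, 976 were higher in the second set and 666 lower, 7.47% in all, and the smallest adjusted p was 0.286. The largest SD of any gene above the reference was that of TUBA1B, an alpha-tubulin, at 9.39, 7.29, 8.24, 3.52 and 2.55 on replicates 1 to 5. Its 2 low readings were both in the second set, a difference of -5.27 (95% interval -6.77 to -3.78, limma adjusted p = 0.3755). CCL20, a chemokine, read 5.31, 4.98, 5.56, 7.23 and 7.27, a difference of 1.96 (1.43 to 2.50, adjusted p = 0.3755). ESM1, a secreted proteoglycan, differed by 1.32, the bone morphogenetic protein BMP4 by -1.17 and the nucleotide-binding protein HINT1 by 1.25, each with a limma adjusted p of 0.4665. None of the 5 passed the test with these arrays. They were named for the smallest unadjusted p in this same comparison, so their separation between the sets follows from that choice. The intervals are not adjusted for it. Readings of the 2 sets did not overlap for 26.8% of all probe sets. With 3 arrays against 2 there are few possible orders, so many probe sets separate without any difference between the sets. The share was not tested.

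With all 10 arrays, the treatment being a covariate, 564 probe sets were higher in the second set (2.57%) and 212 lower (0.965%) by limma. With the replicate number, which the labels repeat in both treatments, as a random block in this fit, these were 247 (1.12%) and 68 (0.309%). Without the array of DMSO replicate 1 and without the block they were 1187 (5.4%) and 618 (2.81%). CCL20, ESM1, HINT1, BMP4 and TUBA1B were chosen by their p in the DMSO arrays, and those arrays are part of these fits. The p-values given next for these genes are therefore not a separate test of them. In the fit of all 10 arrays the limma adjusted p was 0.002596 for CCL20, ESM1 and HINT1 and 0.007666 for BMP4, and with the replicate block it was 0.007117 for the first 3 and 0.01982 for BMP4. TUBA1B passed without the block (limma adjusted p = 0.02647) and not with it (0.06832). The same held for RB1 (0.0468 and, with the block, 0.09654), which in the DMSO arrays read 9.38, 8.93, 9.10, 8.31 and 8.21.

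Counted over genes, 354 of 14232 were higher in the second set and 134 lower in the fit of all 10 arrays, and 160 and 38 with the replicate block. Calls in that fit were also counted by list, and oxidative phosphorylation is described because it had the most. Calls were not particular to it. Ribosomal proteins had 4 of 28 higher and 1 lower. The proteasome had 3 of 29 higher, RNA binding and splicing 4 of 43 and glycolysis 2 of 16, each with 0 lower. Many lists had no calls. Of the oxidative phosphorylation genes, 12 of 58 were higher and 0 lower by limma. With the block 5 of 58 were higher. Without the array of DMSO replicate 1, and without the block, 18 of 58 were higher, beside 805 of all 14232 genes higher and 441 lower. The smallest adjusted p among them, named for that reason, were those of the complex I genes NDUFC1 (1.21 higher) and NDUFS3 (0.79 higher), both at a limma adjusted p of 0.002902, or 0.007487 with the replicate block. What else differed between the array sets is not given in the labels.

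**Figure D5:**
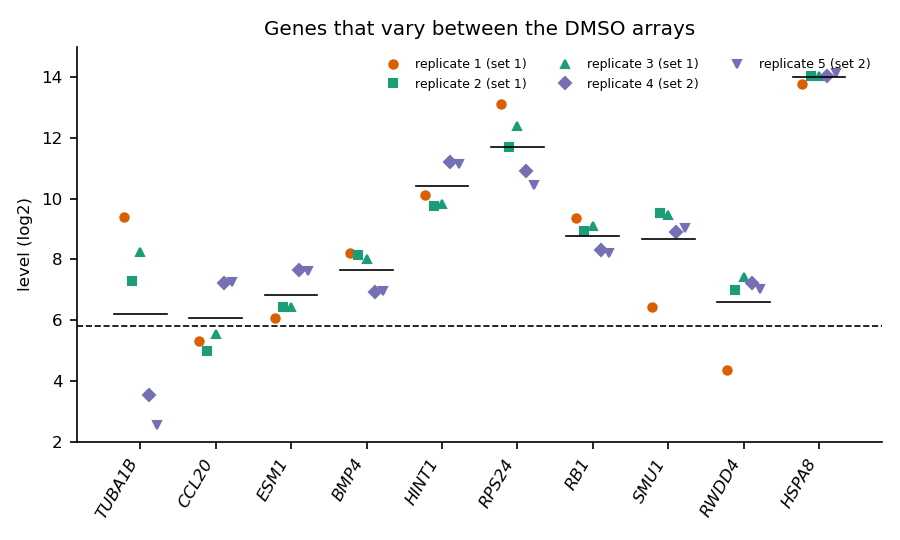
The vertical axis is the log2 level of genes with a large spread or difference between array sets, each point 1 of the 5 DMSO arrays, the black bar the mean and the dashed line the olfactory receptor reference. TUBA1B, CCL20, ESM1, BMP4, HINT1, RPS24 and RB1 separate replicates 4 and 5 from replicates 1 to 3, SMU1 and RWDD4 are low on replicate 1 alone, and HSPA8 is shown as a gene with an SD of 0.14.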

How the data were processed

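RNA of the 5 DMSO cultures was measured on exon arrays, 1 array per sample. The authors deposited log2 values for 21980 gene-level probe sets, made with RMA in Partek on build hg18 per the submitters' processing notes, which give no versions. RMA brings the probes of all arrays to 1 distribution before summarising them, so shifts shared by all genes are not visible. Scanner files were not analysed here. The number of arrays limits the precision, and no read depth applies.

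Symbols come from the platform annotation. Of the symbols on single-symbol probe sets, 28 had no match in the RefSeq gene table, and 0 were updated. The members and gene lists (37 lists, 1064 of 1573 genes measured) were chosen with earlier results of these data known. Genes named were drawn from the 20 highest, in each list the 4 highest and 2 lowest, a set of regulators, the 10 largest SDs and the 5 smallest p between array sets. Not every gene of these groups is named in the text. A few others are marked in the text as chosen after their values were seen, as are CNN2, NDUFC1 and NDUFS3.

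Array sets were compared with limma 3.58.1 in R 4.3.3 (lmFit, eBayes, Benjamini-Hochberg over all probe sets), which was tested on simulated data. For the 3 against 2 comparison it recovered 2% of planted changes of 1 log2 unit and 56% of those of 2. Levels were computed with Python 3.11.15 and pandas 2.3.3. The alternatives were quantile normalization, median centring, other rules for several probe sets, medians over arrays, other reference levels and each array left out. Protein lengths and gene lengths were not used here.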

Additional observations from a re-analysis of the deposited data

Results flagged for a closer look

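Dixon's test was run on the 5 readings of 165 genes named in the text and of 37 list medians, and of each array's interquartile range and olfactory receptor reference, 204 sets in all. It set 1 array apart in 23 of them, and in all 23 that array was replicate 1. In 13 it was the lowest and in 10 the highest. Chance gives about 1 in 20 among independent sets not chosen by their spread. The 204 sets are not independent, since they share the same 5 arrays and the list medians include tested genes. The 23 can therefore not be weighed against that share. In addition, 3 of the 23 (SMU1, RWDD4 and GTF2H5) were named for a large SD. The cause was not tested.

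Among these sets, replicate 1 was the lowest array for the following genes. ACTG1 was 12.03 against 12.71 to 12.77, CLIC4 12.16 against 12.84 to 12.88 and H2AC21 12.57 against 13.23 to 13.28. The same held for HSPA8 (13.77), RRM2 (12.63), S100A10 (12.29), SERPINH1 (10.40), CDK2 (9.94), ITGAV (9.81) and RYK (9.72). It also held for SMU1 (6.42), RWDD4 (4.35) and GTF2H5 (4.35).

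It was the highest array for the others. PTPRC was 4.31 against 3.79 to 3.82 and CDH1 5.98 against 5.41 to 5.47. The same held for HOXC8 (9.31), HOXC10 (8.56), TPI1 (6.36), FLT3 (4.49) and OR6C1 (3.49), and for ITGA5 (10.78). The list medians of cartilage genes (6.44 against 5.89 to 6.03) and tubulins (9.09 against 7.90 to 8.24) were likewise highest on replicate 1. Bright genes outside the 23 could also be highest on replicate 1, as H1-4 was at 13.51 against 13.06 to 13.27.

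Outside the genes described, 2773 probe sets without a gene symbol (53.9% of 5140) read above the olfactory receptor reference, as did 1631 with several symbols (67.7%).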

How the results depend on the processing

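No paired analysis was possible because each replicate number occurs once within the DMSO arrays, except in the fits over all 10 arrays. Most results kept their value. The number of genes above the olfactory receptor reference was 9180 to 11117 over its 12 alternatives, and 18 to 20 of the 20 highest genes were shared with each of 7 alternatives. With only genes of 1 probe set, medians were 7.88 for mesenchymal, 6.32 for neuronal and glial and 6.92 for matrix enzyme genes. With the median over arrays they were 5.46 for blood cell and 8.42 for telomere genes, and 1 cytosolic sensing gene lay in the highest 25%. Leaving out 1 array each gave 10.19 to 10.29 for RNA binding and splicing, 6.80 to 6.91 for receptor tyrosine kinases, 8.41 to 8.52 for telomere genes, 1 to 2 cytosolic sensing genes in the highest 25% and a median SD of 0.18 to 0.26. Between array sets, limma called 776 probe sets over all 10 arrays, 315 with the replicate number as a random replicate block (correlation 0.19) and 1805 without the array of DMSO replicate 1, the last 2 being alternatives chosen after seeing the data. A fixed replicate block could not be fitted, since each number lies in 1 array set. Those fits hold more arrays. All other alternatives over the DMSO arrays gave 0 calls. With the last start listed per gene, also chosen after seeing the data, GGGCGG was in 71% and CCAAT in 41.1% of the highest 5%. Signal over background was not analysed here, so dim readings are bounded only by the olfactory receptor reference. Levels of other arrays, platforms or lines were not compared.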

Other observations

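Tubulins, the subunits of microtubules, had a median of 8.20 with 3 of 7 measured genes in the highest 25%. TUBB6 read 10.99 ± 0.19 (SD, n = 5) (TUBB itself is not in the list) and TUBG1, the gamma-tubulin that seeds microtubules, 10.67 ± 0.26. Taste receptors had a median of 4.66 with 0 of 21 in the highest 25% and were close to olfactory receptors at 4.20.

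Metallothioneins, which bind zinc and copper, had a median of 5.64 over 5 genes with 0 in the highest 25%. MT4, known from squamous epithelium, read 8.19 ± 0.41. MT1X read 4.89, 3.90, 5.28, 4.36 and 6.46 on replicates 1 to 5, a mean of 4.98 ± 0.98, and its highest reading was on replicate 5. Metallothionein genes are close copies of each other, and whether their probes are shared was not tested.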
